A study of Mus musculus with 4 samples.

Results

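Immediate early and stress response genes were compared between 2 strains of male mice, in RNA of the whole stomach, through 10 genes: Fos, Fosb, Jun, Junb, Egr1, Atf3, Dusp1, Ier2, Ier3 and Zfp36. The genes were taken by symbol, from probes that the platform's annotation assigns to exactly 1 gene. All 10 had 1 probe each, out of 13840 genes named in this way, and all 10 probes had a value on all 4 arrays, so none was lost to blank cells. The wild-type mice were C57BL/6J, a common inbred strain. They were set against homozygous B6.CAST-17 congenic mice. By its name this strain carries chromosome 17 material of CAST origin on the B6 background, and how far the segment reaches is not given in the labels. Each strain had 2 pools of total RNA with 3 animals in each, 1 array per pool. All animals ate chow, were food deprived for 4 h during the light period and were killed under isoflurane before the stomach was rinsed and frozen. Their age is not given. The question in the study's title concerns Glp1r and gastric emptying; the labels name no question about immediate early genes.

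Immediate early genes are transcribed within minutes of a stimulus from factors that are already present in the cell, without new protein synthesis. Kinase cascades and calcium or cyclic AMP signals reach serum response factor at CArG boxes and CREB at cyclic AMP response elements, and the products are mostly transcription factors, followed by proteins that end the signal. FOS and JUN family proteins pair into the factor AP-1, EGR1 is a zinc finger factor, and ATF3 is a stress-induced factor that pairs with JUN proteins. DUSP1 dephosphorylates and so switches off MAP kinases, and ZFP36 destabilises mRNAs with AU-rich elements. In gastric mucosa Egr1 and Fos are known to be induced by injury.

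Promoters bear on these genes because they hold the elements through which they are induced together. RefSeq's promoter table (GRCm38.p6, the C57BL/6J reference) held 8 of the 10 genes; Egr1 and Ier2 had no entry. The 250 bases before the annotated start were searched on both strands for the CArG box, for the full cyclic AMP response element TGACGTCA, for its core TGACG, for the AP-1 site TGAGTCA and for the EGR site GCGTGGGCG; a full element also counts as its core, once on each strand. The motifs were chosen after earlier results on these genes were known, and the core element after the promoters had been read. The sequences of Fos, Dusp1, Zfp36 and Jun follow because these genes stood farthest apart between the strains among those with an entry, with Jun in the opposite direction. Capitals mark motif matches, and each sequence runs 5′ to 3′.
Fos, chr12:85473640-85473889, plus strand: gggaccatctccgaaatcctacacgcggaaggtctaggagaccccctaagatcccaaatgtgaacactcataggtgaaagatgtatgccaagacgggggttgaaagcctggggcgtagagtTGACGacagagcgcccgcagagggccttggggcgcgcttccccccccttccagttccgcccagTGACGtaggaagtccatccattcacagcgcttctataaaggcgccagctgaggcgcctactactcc
Dusp1, chr17:26508473-26508722, minus strand: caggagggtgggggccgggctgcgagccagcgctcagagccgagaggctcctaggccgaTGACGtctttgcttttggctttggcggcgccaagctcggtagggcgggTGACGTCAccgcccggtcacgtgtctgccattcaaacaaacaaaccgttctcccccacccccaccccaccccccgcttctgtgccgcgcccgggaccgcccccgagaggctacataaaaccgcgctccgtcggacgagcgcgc
Zfp36, chr7:28379229-28379478, minus strand: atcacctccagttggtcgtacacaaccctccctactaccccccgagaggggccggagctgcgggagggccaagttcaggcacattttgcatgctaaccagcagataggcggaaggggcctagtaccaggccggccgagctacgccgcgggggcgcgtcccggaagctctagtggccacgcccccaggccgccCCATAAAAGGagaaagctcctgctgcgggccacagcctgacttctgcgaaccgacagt
Jun, chr4:95052223-95052472, minus strand: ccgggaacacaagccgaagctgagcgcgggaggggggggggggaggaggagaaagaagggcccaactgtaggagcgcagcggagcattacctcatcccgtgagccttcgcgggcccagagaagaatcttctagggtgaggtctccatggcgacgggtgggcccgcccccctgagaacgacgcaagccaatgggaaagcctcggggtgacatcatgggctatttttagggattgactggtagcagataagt

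Within these 250 bases, Zfp36 alone of the 8 held a CArG box, CCATAAAAGG, 58 bases before the start. Of all 32851 promoter windows 1.47% hold one. Sequence farther from the start was not searched, so a gene without a match here may still have the element there. Dusp1 alone held the full element TGACGTCA, 143 bases before the start, against 1.55% of all windows. The core element was found in 5 of the 8 (Fos, Fosb, Junb, Atf3 and Dusp1) and in 17.8% of all windows. In Fos it stood 129 and 66 bases before the start. No window of the 8 held TGAGTCA or GCGTGGGCG, which occur in 4.46% and 0.536% of all windows. Jun had no match to any of these motifs within its window. These letters are those of the wild-type strain's reference; whether the congenic mice carry other bases in the Dusp1 or Ier3 promoters, both on chromosome 17, or under any probe, was not examined.

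Values are the authors' log2 signals, and differences are congenic minus wild type on that scale, ± SE, with n = 2 pools per strain. The SE is limma's moderated one, which borrows from other probes and is not the spread of the gene's own pools alone. Base 2 is an inference from the values, on which every fold below depends. Between the strains, 0 of the 10 genes passed a limma adjusted p of 0.05, a level that 0.475% of all 13475 compared probes reached. At an unadjusted limma p under 0.05 there were 6 of 10, 5 lower and 1 higher in the congenic pools, where 15.8% of all probes reached that level (8.66% lower and 7.12% higher). Both congenic values lay outside the range of both wild-type values for 7 of the 10, 5 below and 2 above. Among all probes 49.4% separated in this way, 26.1% below and 23.4% above. The congenic mean was below the wild-type mean for 7 of the 10, as it was for 50.4% of all probes. The median difference over the 10 was -0.19, against -0.0020 over all probes, and the median size was 0.29 against 0.15. Pools of one strain differed by a median of 0.078 (congenic) and 0.075 (wild type) for these genes, against 0.133 for both strains over all probes. These genes were mostly bright: 8 of the 10 probes were at or above the median level of the compared probes. Fitted alone, 1326 of the 6738 probes at that level had an unadjusted limma p under 0.05, a larger share than over all probes. All probes are therefore not a background of like signal. The set was chosen with results of these data known, so these counts describe it and do not test it. In RNA of a whole organ, fewer cells of a type and less RNA per cell cannot be told apart.

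Fos, the partner of JUN proteins in AP-1, read 15.62 and 15.69 in congenic pools 1 and 2 and 16.00 and 15.99 in wild-type pools 1 and 2. The wild-type pools were within 0.0099 of each other and both congenic pools lay below them. The difference was -0.34 ± 0.071, a 1.27-fold lower signal, with a limma adjusted p of 0.1638. Fosb, the closest relative of Fos in the set, read 11.95 and 12.14 in the congenic pools and 12.14 and 11.94 in the wild-type pools. Its groups overlapped almost completely, with a difference of 0.0077 ± 0.15 (95% interval -0.35 to 0.37), so a difference of the size seen for Fos lies inside the interval.

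Jun, the best known DNA-binding partner of FOS, pointed the other way. Its values were 15.81 and 15.80 in the congenic pools and 15.48 and 15.34 in the wild-type pools, without overlap. The difference of 0.40 ± 0.080 was a 1.32-fold higher signal (limma adjusted p = 0.1558). Within an array, the log2 signal of the Fos probe minus that of the Jun probe was -0.20 and -0.11 in the congenic pools and 0.52 and 0.65 in the wild-type pools. This ratio, chosen after the values were seen, differed by -0.74 between the strains and its groups did not overlap. It was not tested, because the pair was chosen for its values. Junb, a JUN protein that can restrain JUN activity, read 12.58 and 12.04 in the congenic pools against 12.46 and 12.41 in the wild-type pools. The congenic pools lay on either side of the wild-type pair and 0.54 apart, the widest gap between pools of a strain among the 10 genes. Its difference was -0.13 ± 0.19, with a 95% interval of -0.60 to 0.35, and its sign depended on congenic pool 2 (0.14 without it).

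Atf3, the stress-induced factor that pairs with JUN proteins, read 13.63 and 13.54 in the congenic pools and 13.33 and 13.44 in the wild-type pools. Its lowest congenic value was above its highest wild-type value, but the difference of 0.20 ± 0.097 had a 95% interval that includes 0 (-0.038 to 0.44; limma adjusted p = 0.3796). Egr1, the zinc finger factor, read 13.56 and 13.65 in the congenic pools and 13.90 and 14.05 in the wild-type pools. Both congenic values were below both wild-type values, with a difference of -0.37 ± 0.096, or 1.29-fold (limma adjusted p = 0.1938).

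**Figure D1:**
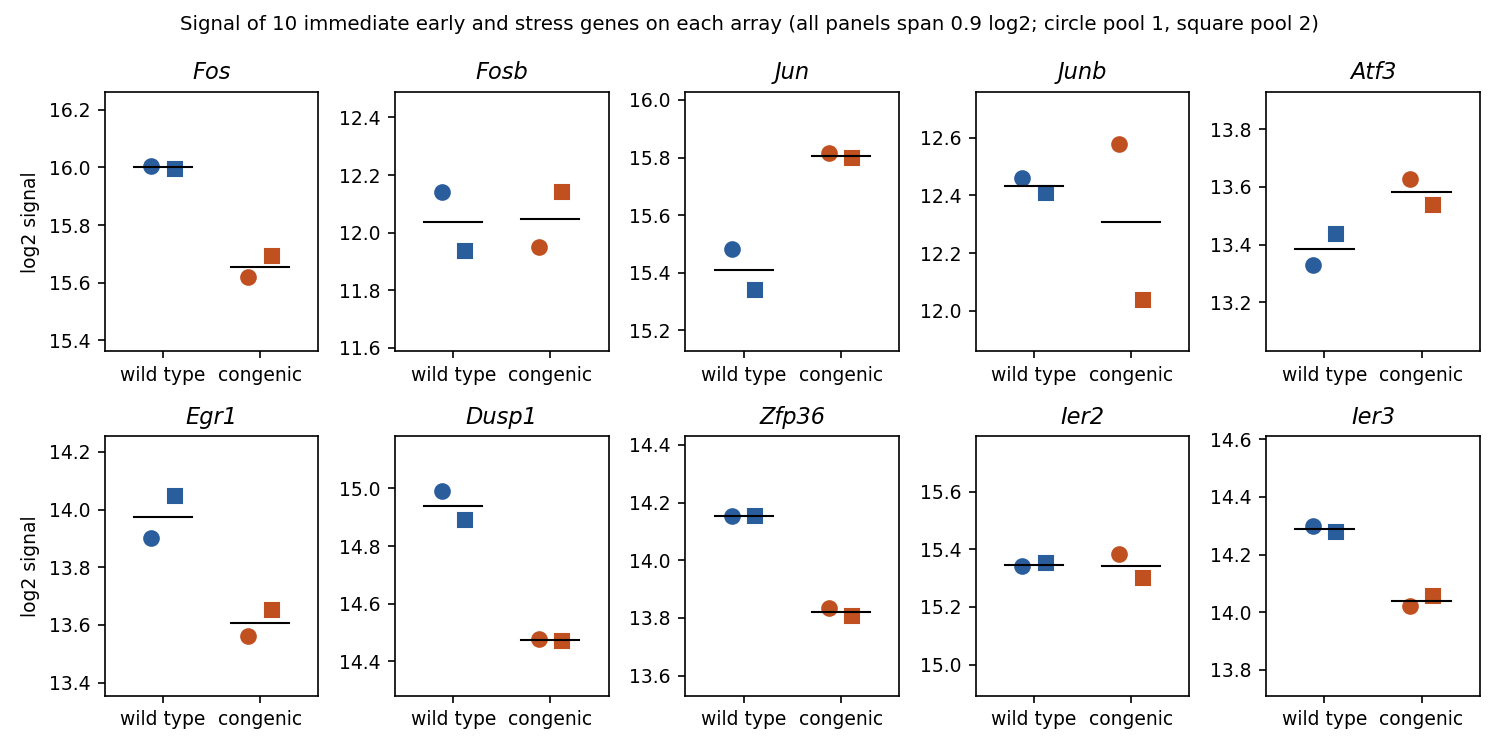
Log2 signal of each of the 10 genes in wild-type (blue) and congenic (orange) pools; circles are pool 1, squares pool 2, black lines the means, and all panels span the same range of signal. Fos, Egr1, Dusp1, Zfp36 and Ier3 lie lower in both congenic pools, Jun and Atf3 lie higher, and Fosb, Junb and Ier2 overlap.

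Dusp1 and Zfp36 encode proteins that end a response, and Dusp1 had the largest difference of the 10. The Dusp1 probe read 14.48 and 14.47 in the congenic pools and 14.99 and 14.89 in the wild-type pools. The congenic pools agreed within 0.0078 and lay below both wild-type pools. The difference was -0.46 ± 0.079, a 1.38-fold lower signal, and its limma adjusted p of 0.1141 was the smallest of the set. Zfp36, the mRNA-destabilising protein, read 13.83 and 13.81 in the congenic pools and 14.15 in both wild-type pools. Again the groups were apart, with a difference of -0.33 ± 0.081 and a limma adjusted p of 0.1827.

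The immediate early response genes Ier2 and Ier3 share a name for their rapid induction and are otherwise unrelated proteins. Ier2, a nuclear protein, read 15.38 and 15.30 in the congenic pools and 15.34 and 15.35 in the wild-type pools. All 4 values lay within a narrow band and the congenic pair enclosed the wild-type pair. Its difference was -0.0050 ± 0.074, with a 95% interval from -0.19 to 0.18. The point estimates for Fos, Egr1, Zfp36, Dusp1 and Ier3 lie below that interval. The intervals of Fos, Egr1, Zfp36 and Ier3 nevertheless overlap it, and whether any of these genes differed from Ier2 was not tested. Ier3, a regulator of survival under stress, read 14.02 and 14.06 in the congenic pools and 14.30 and 14.28 in the wild-type pools. Its groups did not overlap, and the difference was -0.25 ± 0.079 (limma adjusted p = 0.2445).

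**Figure D2:**
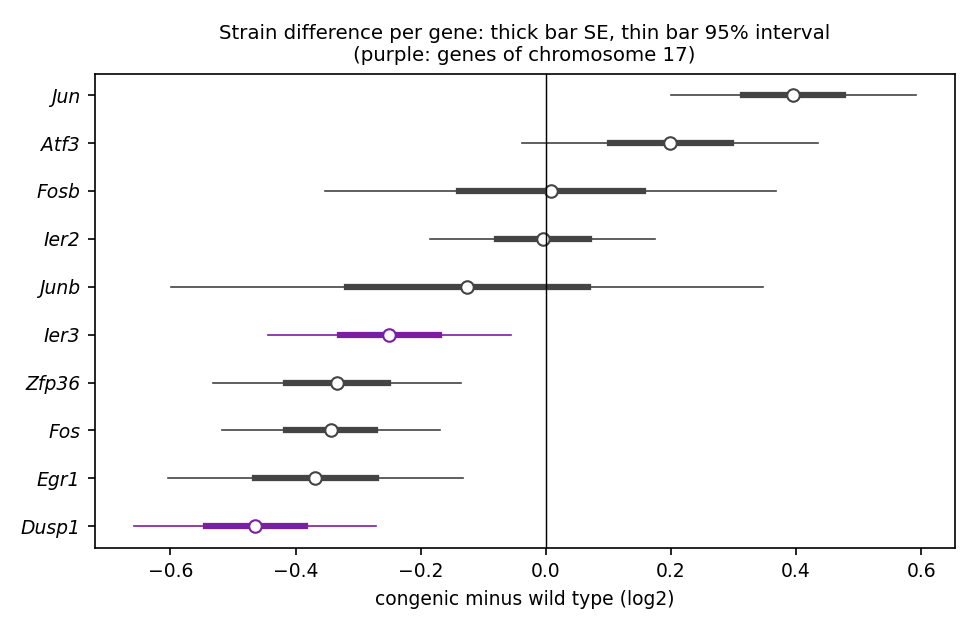
Congenic minus wild-type difference of each gene on the log2 scale (horizontal axis); circles are estimates, thick bars SE and thin bars 95% intervals, before adjustment for the number of probes. The estimates run from -0.46 for Dusp1 to 0.40 for Jun, and both genes of chromosome 17 (purple) are on the lower side.

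Dusp1 and Ier3 are the 2 of the 10 that lie on chromosome 17, the chromosome named in the congenic strain. There 34.5% of 383 named probes had an unadjusted limma p under 0.05, against 15.0% of 7520 on other chromosomes, and 5.22% against 0.266% passed after adjustment. Of the 8 genes on other chromosomes, 4 had an unadjusted p under 0.05, 3 of them lower, and their median difference was -0.065. In chromosome order, Dusp1 was gene 105 and Ier3 gene 219 of 379 measured. On one side of Dusp1, Fam234a was higher in congenic stomachs (0.58 ± 0.070, limma adjusted p = 0.03707). With any single pool removed the Fam234a call was lost, at limma adjusted p values from 0.06555 (wild-type pool 2) to 0.2478 (congenic pool 2). It was also lost with the replicate number as a block (limma adjusted p = 0.1303) and without the variance trend (0.2318). Between it and Dusp1 lay Luc7l (0.26 ± 0.19), and beyond it Axin1, a scaffold of Wnt signalling (0.23 ± 0.077). The gene next to Dusp1 on the other side, Ergic1, differed by -0.65 ± 0.11 (limma adjusted p = 0.1202), with 12.69 and 12.52 in the congenic pools and 13.32 and 13.20 in the wild-type pools. Atp6v0e (-0.10 ± 0.074), a proton pump subunit, and Crebrf (0.047 ± 0.089) followed.

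Around Ier3 none of the 6 nearest measured genes passed. Gtf2h4, a subunit of a general transcription factor, differed by 0.28 ± 0.18 on one side, followed by Vars2 (0.097 ± 0.25) and Psors1c2 (-0.38 ± 0.15). On the other side, Flot1, a membrane scaffold protein, differed by -0.21 ± 0.10, Tubb5, a beta-tubulin, by -0.084 ± 0.12 and Nrm by -0.21 ± 0.23. The differences of Dusp1 and Ier3 were flanked by differences of both signs.

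**Figure D3:**
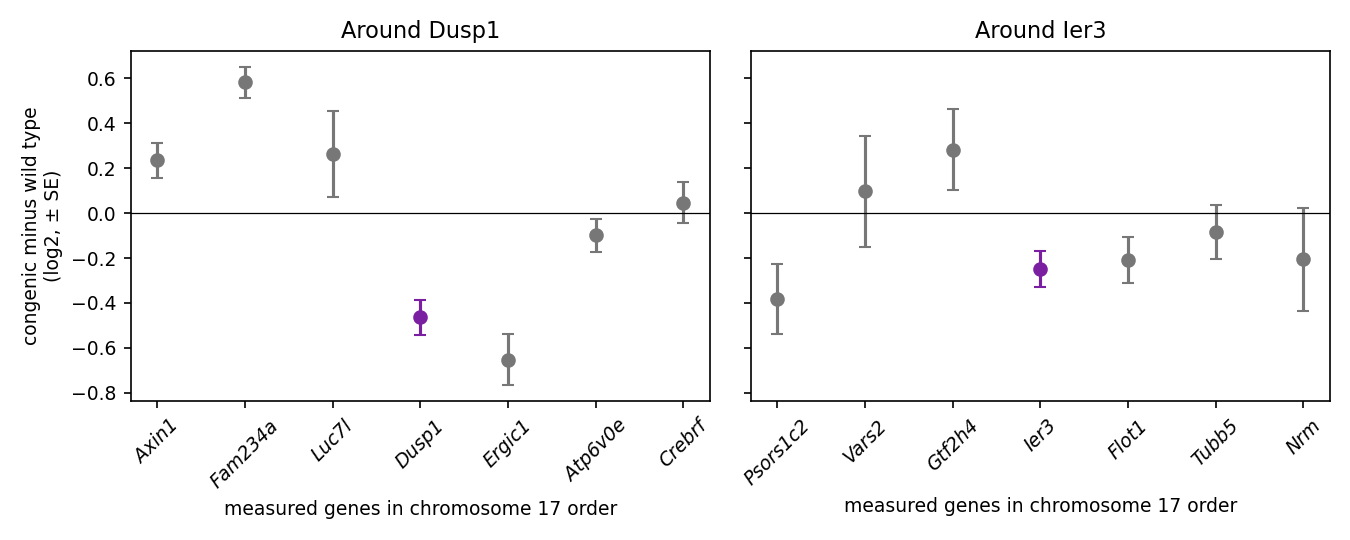
Congenic minus wild-type difference (log2, vertical axis; bars are SE) of Dusp1 and Ier3 (purple) and the 3 measured genes on either side in chromosome 17 order. Dusp1 sits between higher genes on its left and Ergic1, at -0.65, on its right.

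Genes related to the 10 by family or pathway were listed by textbook role, 114 genes in 7 lists, of which 72 were measured on all arrays. In limma 1 passed, higher in the congenic pools, and 0 passed lower. An unadjusted limma p under 0.05 was reached by 16 (8 higher and 8 lower), or 22.2%, against 15.8% of all probes. That share of all probes also stands beside the counts of the single lists below. The groups did not overlap for 41 of the 72 (56.9%), against 49.4% of all probes. The median over the 72 was -0.00075, near that of all probes. The gene that passed was Pim1, a serine/threonine kinase induced by cytokines and itself a gene of chromosome 17. Pim1 read 13.10 and 12.98 in the congenic pools and 11.90 and 11.92 in the wild-type pools, a difference of 1.13 ± 0.11 (limma adjusted p = 0.02219). The call was lost without congenic pool 1 (limma adjusted p = 0.1785), congenic pool 2 (0.1361) or wild-type pool 1 (0.06064), with the replicate number as a block (0.08916) and without the variance trend (0.08972).

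In the AP-1 and EGR families 11 of 14 listed relatives were measured and 0 passed in limma, with 4 at an unadjusted p under 0.05 (3 higher and 1 lower). Their median was 0.14, and 2 of the 11 differences were negative, as were 50.4% of those of all probes. The groups did not overlap for 8 of the 11, against 49.4% of all probes. These counts describe the list and do not test it. Jund, the constitutive JUN protein, read 12.50 and 12.54 in the congenic pools and 12.79 and 13.05 in the wild-type pools, a difference of -0.40 ± 0.13. It was therefore on the side of Fos and not of Jun. Batf, an AP-1 factor of lymphoid cells that pairs with JUN proteins, read 11.32 and 11.37 in the congenic pools and 10.57 and 10.48 in the wild-type pools, 0.82 ± 0.18 apart (limma adjusted p = 0.1752). The small MAF protein Maff was 0.36 ± 0.092 apart, while Mafk (-0.062 ± 0.11) and Mafg (0.070 ± 0.073) were nearer to 0. The FOS relatives Fosl1 (0.25 ± 0.14) and Fosl2 (0.14 ± 0.23) and the JUN-binding repressor Jdp2 (0.12 ± 0.16) were within 2 SE of 0. Egr3 differed by 0.37 ± 0.27. Of the co-repressors that bind EGR proteins, Nab2 differed by 0.37 ± 0.13 (limma adjusted p = 0.2772), with 13.11 and 13.13 against 12.90 and 12.61, and Nab1 by 0.025 ± 0.093.

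Of the other MAP kinase phosphatases 5 of 10 were measured. In limma 0 passed, 0 reached an unadjusted p of 0.05, and the median was -0.043. Dusp6, which acts on ERK, differed by -0.16 ± 0.096, Dusp14 by -0.12 ± 0.072, Dusp7 by -0.043 ± 0.17, Dusp16 by 0.012 ± 0.082 and Dusp8 by 0.092 ± 0.12. Whether Dusp1 differed more than its relatives was not tested. Among relatives of Zfp36 and of the Ier genes 4 of 6 were measured, and in limma 0 passed and 0 reached an unadjusted p of 0.05. Zfp36l1, which destabilises mRNAs as Zfp36 does, differed by 0.020 ± 0.077, and Zfp36l2, a gene of chromosome 17, by 0.32 ± 0.20. Ier5l differed by -0.13 ± 0.24 and Ier3ip1, named for its interaction with IER3, by -0.046 ± 0.078.

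Of 38 other immediate early genes listed, 28 were measured. Of these 28, 8 had an unadjusted p under 0.05, 4 higher and 4 lower, and the median was -0.014. Pim1 had the smallest p, followed by Nr4a3, an orphan nuclear receptor, which read 16.38 and 16.86 in the congenic pools and 17.79 and 17.43 in the wild-type pools. The Nr4a3 pools did not overlap, and the difference of -0.99 ± 0.19, a 1.99-fold lower signal, had a limma adjusted p of 0.1415. Klf4, an epithelial differentiation factor, read 15.59 and 15.55 against 15.87 and 16.04, with a difference of -0.38 ± 0.085. The other NR4A receptors, chosen after their values were seen, were not alike: Nr4a1 differed by -0.40 ± 0.11 without overlap of the pools, and Nr4a2 by 0.21 ± 0.14 with overlap.

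The medians of the stress programmes other than the immediate early one were -0.0076 for the integrated stress response and growth arrest and -0.086 for heat shock. Of 14 listed genes of the integrated stress response and growth arrest, 12 were measured. Among them limma gave 0 past the threshold and 1 at an unadjusted p under 0.05. That gene was Ppp1r15a, which recruits the phosphatase that ends the integrated stress response (-0.36 ± 0.14). Chac1, a target of the same response, differed by 0.32 ± 0.13 and Hmox1, haem oxygenase, by -0.22 ± 0.10. Only 5 of 13 listed heat shock genes were measured, so most of that list was not seen. For these 5 limma gave 0 past the threshold and 1 at an unadjusted p under 0.05, Bag3, a co-chaperone (-0.38 ± 0.12). The mitochondrial chaperonins Hspe1 and Hspd1 differed by 0.14 ± 0.11 and -0.11 ± 0.098. Of 19 listed upstream signalling genes 7 were measured, and limma gave 0 of these past the threshold and 2 at an unadjusted p under 0.05. Srf, which encodes serum response factor and lies on chromosome 17, read 13.91 and 13.87 in the congenic pools and 13.51 and 13.60 in the wild-type pools (0.33 ± 0.090, limma adjusted p = 0.2034). Map2k2 and Map2k1, the kinases that activate ERK, differed by -0.26 ± 0.099 and -0.15 ± 0.075.

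**Figure D4:**
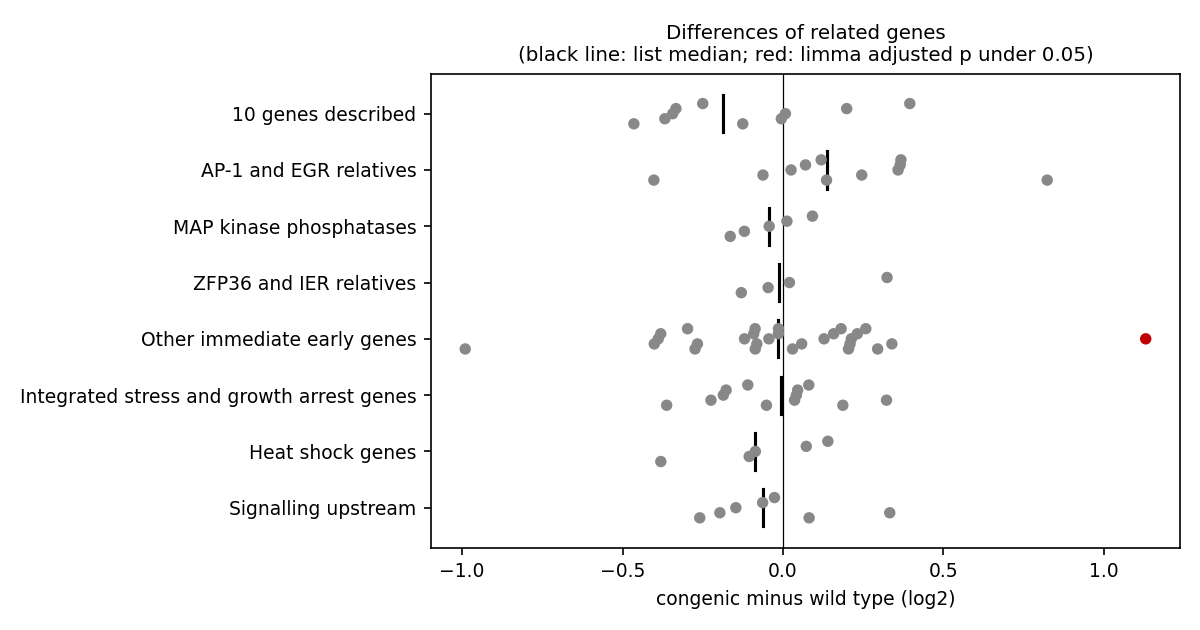
Congenic minus wild-type difference (log2, horizontal axis) of the 10 genes and of the measured genes of 7 related lists; each point is a gene, black lines are list medians, and red marks a limma adjusted p under 0.05. Pim1 is the 1 red point, and the list medians run from -0.19 for the 10 genes to 0.14 for the AP-1 and EGR relatives.

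The probes whose profile over the 4 arrays was closest to that of Fos, after each was centred on its mean, were those of Map3k3, a kinase upstream of MAP kinases, Entpd2, an ectonucleotidase, and Vegfb, a growth factor. Their root mean square distances to Fos were 0.0085, 0.0098 and 0.012 log2 over 4 arrays, among 7906 named probes. Within the set Zfp36 was nearest to Fos (0.038, rank 53), then Ier3 (0.049, rank 106), Egr1 (0.056, rank 148) and Dusp1 (0.075, rank 384). Jun was the farthest (0.37, rank 7078). With 4 arrays such likeness mostly restates the size and sign of the strain difference.

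Several stomach genes were bright on all 4 arrays: Atp4a and Atp4b of the proton pump, Cblif, and the gastrokines Gkn1 and Gkn2. Not all markers of the same lists were bright. Kcnq1 read 12.14 to 12.47 and Muc6 9.51 to 10.89, below the array medians of 12.82. Most markers of other tissues moved with strain. All 7 exocrine pancreas markers were higher in the congenic pools, with a mean log2 signal of 15.55 to 15.61 against 13.13 to 13.24, and 7 passed in limma (4 without congenic pool 1). All 5 skeletal muscle markers read lower, with a mean of 12.59 to 12.68 against 13.82 to 13.83, and 3 passed (1 without congenic pool 1). The mean of 5 liver markers was 14.75 to 14.78 against 13.87 to 14.01, with 1 past the threshold (0 when either congenic pool was dropped and 2 when wild-type pool 2 was). Of the liver markers, Alb, Ahsg and Fgg were higher in the congenic pools without overlap. Apoa1 (0.055 ± 0.073) and Ttr (0.050 ± 0.077) overlapped between the strains. Smooth muscle markers were lower in the congenic pools (16.12 to 16.13 against 16.23 to 16.28), with a median difference of -0.075. In limma 0 of 5 passed, with 2 at an unadjusted p under 0.05. Enteroendocrine markers were lower too (16.89 to 16.91 against 17.17 to 17.21). All 6 differences were negative, and their median was -0.26, against -0.19 for the 10 genes. Gast stood farthest apart (-0.59 ± 0.099, limma adjusted p = 0.113). In limma 0 of 6 passed, with 3 at an unadjusted p under 0.05. Over all probes 0.475% passed, 15.8% reached that unadjusted level and 50.4% had a negative difference. These shares stand beside every marker count in this paragraph. For parietal (3 measured), chief (3), pit and neck mucous (4), forestomach lining (5), endothelial (2), fibroblast (4) and erythroid (1) markers limma gave 0 past the threshold, with 1, 0, 0, 1, 1, 0 and 1 at an unadjusted p under 0.05. In the same order, 2, 0, 2, 3, 1, 1 and 1 of the differences were negative. All 3 chief cell markers were higher in the congenic pools without overlap (median 0.24), as were 23.4% of all probes. No T or B cell marker had a value on all arrays, and 2 of 6 macrophage and granulocyte markers did, Lyz2 (0.079 ± 0.092) and S100a9 (0.037 ± 0.096). The part of any of these in the differences of the 10 genes was not tested.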

How the data were processed

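Total RNA of stomach was turned into digoxigenin-labelled cRNA (1 microgram per pool) and hybridised to single-colour arrays, per the labels' protocols. The deposited table gives the authors' log2 signal per probe; base 2 is an inference from the range, and neither the normalization nor the rule behind blanks is given in the sources used here. Of 33012 probes, 13475 had a value on all arrays and were compared, with no further normalization, filter or pseudocount: array medians over them lay between 12.819 and 12.824. The number of arrays limits the precision. SE and p-values rest on each probe's spread between pools, which limma draws towards that of probes of similar signal.

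Strains were compared in R 4.3.3 by limma 3.58.1, a linear model with a variance trend (residual degrees of freedom 2, prior 3.97). Tests were two-sided and Benjamini-Hochberg adjusted across the compared probes. Data were simulated for the strain comparison over 13475 probes, with spreads drawn from limma's fitted prior. The fit found 66 of 100 changes of size 1 and 91 of 100 of size 2 (log2), with 7 false among 164 calls. Changes as small as those of the 10 genes (-0.46 to 0.40) were not simulated. The run therefore does not show how often such changes would be found. The 10 genes, the related lists and the markers were chosen with earlier results of these data known. Named were all 10 genes, every measured gene of the 3 family lists, any related gene that passed, the 3 smallest p of each other list, the 3 nearest measured genes on either side of Dusp1 and Ier3, and the 3 profiles closest to Fos. Marker lists were summarised by counts and ranges. Atp4a, Atp4b, Kcnq1, Cblif, Gkn1, Gkn2, Muc6, Gast, Alb, Ahsg, Fgg, Apoa1, Ttr, Lyz2 and S100a9 were named after their values were seen. Where a listed gene had several probes, the one with the highest mean was used. Gene order came from RefSeq (GRCm38.p6). The alternatives tried were a block for replicate number, median centring, quantile normalization, no variance trend, dropping dim probes, permitting 1 blank, and dropping each pool in turn. Figures were drawn with matplotlib 3.10.9.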

Additional observations from a re-analysis of the deposited data

How the results depend on the processing

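Under all 10 alternatives 0 of the 10 genes passed an adjusted p of 0.05 in limma, and the number at an unadjusted p under 0.05 was 6, except when a pool was dropped: 5 (congenic pool 2), 5 (wild-type pool 1) and 4 (wild-type pool 2). Fos, Jun, Egr1, Atf3, Dusp1, Ier3 and Zfp36 kept their direction under every alternative run: Dusp1 ranged from -0.52 to -0.41, Fos from -0.38 to -0.31 and Jun from 0.32 to 0.47. That was fixed in advance when a pool was dropped, because the groups of these genes did not overlap. The block, the missing trend, the dim-probe filter and the permitted blank leave each difference as it was. The kept direction is therefore no further evidence for these differences. The signs of Fosb, Junb and Ier2 turned under some alternatives. Fosb was -0.00036 after quantile normalization. With single pools left out, Fosb ranged from -0.094 to 0.11 and was negative without congenic pool 2 (-0.086) and without wild-type pool 2. Junb ranged from -0.40 to 0.14, and was positive without congenic pool 2. Ier2 ranged from -0.045 to 0.035, and was positive without congenic pool 2 and without wild-type pool 2 (0.0017). Fosb and Junb fell among the dim probes left out and had no value there. Over all probes the 64 calls became 35 with the replicate number as a block, 20 without the variance trend, and 15 to 168 when a pool was left out. The 1 call among related genes became 0 with the replicate block, 0 without the trend and 0 without dim probes, where Pim1 itself was left out, and 0 to 1 when a pool was left out. Nothing in the labels pairs pools by number, and same-numbered pools did not deviate together (r = -0.064 over 13475 probes), so the replicate block is no better description of the design. Median centring and quantile normalization could change little, because the arrays already shared their highest value (21.25) and nearly shared their medians. Exact values also recurred between arrays for different genes: 19.51437484 was Atp4a in congenic pool 2 and Gkn1 in wild-type pool 1. Quantile normalization leaves arrays with such shared values, so running it here is hardly a separate alternative. Median centring and quantile normalization gave 65 and 64 calls over all probes. Other causes were not tested.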

Other observations

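Some related genes had a value on only some arrays and entered no comparison: 15 genes of the 7 lists. Of these, 9 had a value in congenic pool 1, 11 in congenic pool 2, 5 in wild-type pool 1 and 8 in wild-type pool 2. Of all 33012 probes, 16954 and 16871 had a value in congenic pools 1 and 2, and 16320 and 16326 in wild-type pools 1 and 2. Sgk1, a kinase induced by serum and glucocorticoids, read 17.43 and 17.35 in the congenic pools and 17.28 in wild-type pool 2, and had no value in wild-type pool 1. Ier5, an immediate early gene, was likewise blank in wild-type pool 1 alone, with 14.31 and 14.14 in the congenic pools and 14.11 in wild-type pool 2. Elk4, a partner of serum response factor, read 10.88 and 11.13 in the congenic pools and 12.49 in wild-type pool 2. Dnaja1, a co-chaperone, had values in the congenic pools only, 8.91 and 9.32. Egr4 had a value of 10.92 in congenic pool 2 alone. Other genes were blank on the congenic side. Batf3 was blank in congenic pool 2 alone, with 10.29 in congenic pool 1 and 12.01 and 10.62 in the wild-type pools. Nfkbiz was blank in congenic pool 1 alone, with 11.88 in congenic pool 2 and 12.14 and 12.30 in the wild-type pools. Sesn2 had a value of 11.21 in wild-type pool 2 alone. A blank cell does not show that a transcript was absent, since the rule behind blanks is not known here. These genes were chosen after their values were seen.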
